A study of Mus musculus with 12 samples.

Results

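The matrix metalloproteases (Mmps), the Adamts proteases and their tissue inhibitors (Timps) were examined in a pair of mouse striatal cell lines at rest and after heat shock. Members were taken by symbol as every Mmp, Adamts and Timp gene with a probe set naming that gene alone. Of 18193 genes measured, 37 qualified, namely 18 Mmps, 15 Adamts genes and 4 Timps. Each stood for itself through its brightest probe set, by the mean of the 12 arrays. Another 9 genes of these families in RefSeq were not analysed here: Mmp15, Mmp21, Mmp25, Mmp27, Mmp28, Adamts2, Adamts13, Adamts14 and Adamts17. The study measured total RNA on Affymetrix mouse expression arrays in 4 groups of 3. The STHdhQ7/Q7 line (Q7 cells) carries wild-type huntingtin, and the STHdhQ111/Q111 line (Q111 cells) carries the mutant protein with an expanded polyglutamine tract from a knock-in allele. Each line was kept at 33 °C (untreated) or held at 42 °C for 6 h (heated). All groups grew in the same serum-containing medium with the selection drug G418. Each genotype was 1 line, so line and genotype cannot be told apart. Nothing in the labels says that the 3 arrays of a group came from separate cultures, so p-values speak only of the spread among the arrays at hand, which may be technical.

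Mmps are zinc-dependent endopeptidases made as inactive precursors that together can cut most proteins of the extracellular matrix. Adamts proteases are secreted relatives with thrombospondin repeats that cut proteoglycans such as aggrecan and versican, trim procollagens or act on matrix glycoproteins. Timps bind the active site of Mmps and hold them inactive, and Timp3 also inhibits several Adam and Adamts enzymes. In brain, Mmps and Adamts proteases are known for remodelling the proteoglycan-rich matrix around cells and for their rise in injury and inflammation.

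Values are log2 RMA levels as deposited, and each difference is a log2 value given with its standard error (SE) from limma. A gene was called where its p, adjusted over all 18193 genes by the Benjamini-Hochberg method, was under 0.05. A level in background range is a group mean at or under 5.14, the highest value on any array of 27 probe sets for bacterial RNA. The number of arrays limits the precision. Counts of members under other settings are given without the share of all genes called there. They show how the calls moved and are not read as results about the members. Where leaving out 1 array changed a call of a gene above background range in at least 1 group, each such array is named with the adjusted p that resulted. A fold against a group in background range is a lower bound, taken with that group's arrays raised to 5.14 where they lay under it, and given as at least that fold; the log2 difference is as measured. Heated Q111 array 3 stood apart from its group, with SDs of its differences from the other 2 arrays of 0.694 and 0.773, against 0.389 between those 2. Of 7 measured markers of striatal projection neurons 1 (Foxp1) was above background range in every group, 4 (Drd1, Penk, Tac1 and Bcl11b) in some and 2 (Ppp1r1b and Drd2) in none. Of 6 general neuronal markers 3 (Rbfox3, Map2 and Tubb3) were above it in every group, as were 3 of 6 progenitor markers (Nes, Vim and Notch1), 7 of 8 markers of fibroblasts and mesenchyme and none of 4 oligodendrocyte markers. Of the 6 progenitor markers 4 were called lower in untreated Q111 than Q7 cells, Nes by -3.6, Sox2 by -5.89, Pax6 by -4.59 and Fabp7 by -2.58 on the log2 scale, with Stmn2 (-6.57) and Tac1 (-4.10) of the neuronal lists. Called higher were Foxp1 (0.87), 1 of 5 astrocyte markers (Slc1a3, 1.97) and 2 of the 8 mesenchymal markers, Col1a2 (3.48) and Pdgfra (2.43). Of the 5 astrocyte markers 2 (Slc1a3 and Aldoc) were above background range in every group, 1 (Aqp4) in some and 2 (Gfap and S100b) in none. Of 6 markers of microglia and macrophages 1 (Cd68) was above it in every group, and of 4 endothelial markers none. Most of the summed signal of the progenitor markers was Vim, with means of 13.80 in untreated Q7 and 13.78 in untreated Q111 cells. The sum therefore says little about Nes, Sox2, Pax6 or Fabp7. This summed signal lay between 14.13 and 14.23 on all Q7 arrays and between 13.52 and 13.9 on all Q111 arrays, on the log2 scale. That of the 8 mesenchymal markers lay between 14.31 and 14.48 on untreated and 13.75 and 13.83 on heated Q7 arrays, and between 15.04 and 15.06 on untreated and 13.92 and 14.21 on heated Q111 arrays. The part of these markers in the results was not tested. In bulk RNA, fewer cells of a type and less RNA per cell cannot be told apart.

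Of the 37 members 25 were above background range in at least 1 group and 16 in all 4. In untreated Q7 cells 21 members were above it (56.8%, against 65.3% of all genes), in heated Q7 cells 21 (56.8%, against 66.2%), in untreated Q111 cells 17 (45.9%, against 64.9%) and in heated Q111 cells 20 (54.1%, against 67.7%). The 12 members in background range in every group were Mmp1a, Mmp1b, Mmp7, Mmp8, Mmp12, Mmp13, Mmp17, Adamts8, Adamts15, Adamts16, Adamts20 and Timp4, whose highest group means ran from 2.70 to 5.06. Closest to the bound from below were Adamts16 (5.03) and Mmp17 (5.06), and from above Adamts3 (5.20) and Mmp9 (5.44). The 16 members above it throughout were Mmp2, Mmp3, Mmp11, Mmp14, Mmp19, Mmp23, Mmp24, Adamts1, Adamts4, Adamts5, Adamts6, Adamts7, Adamts10, Timp1, Timp2 and Timp3. The other 9 crossed the bound between groups. Mmp10, Adamts9 and Adamts12 were above it only on the Q7 side, Mmp16 in all groups but heated Q111 cells, and Mmp9 in untreated Q7 cells. Mmp20, Adamts3 and Adamts18 exceeded it in heated Q111 cells, and Adamts19 in the heated cells of both lines.

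Heat shock lowered more of these genes than it raised in Q7 cells. There, 18 of 37 members were called (48.6%, against 30.4% of all genes). Of these 17 were lower (18.1% of all genes) and 1, Mmp23, was higher (12.3% of all genes). The median log2 difference of the 37 was -0.33, against 0.0026 over all genes. In Q111 cells 24 members were called (64.9%, against 48.1% of all genes), 14 lower (28.2% of all genes) and 10 higher (20.0% of all genes). The median there was -0.04, against -0.02 over all genes. Without untreated Q111 array 1 the Q111 count was 16, with 2 higher and 14 lower, and without heated Q111 array 3 it was 18, with 5 higher and 13 lower.

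The heat shock differences of the lines come from separate arrays. The SE of each gene was estimated from all 12 arrays, so the calls in the lines are not independent. The genes lower in both lines were 11, which is 64.7% of the 17 in Q7 cells and 78.6% of the 14 in Q111 cells: Mmp2, Mmp14, Mmp16, Mmp19, Mmp24, Adamts1, Adamts4, Adamts5, Adamts6, Adamts12 and Timp2. Of these, Adamts12 was in background range in both Q111 groups. Over all genes, 2631 were lower in both, 79.9% of 3293 and 51.3% of 5125. With arrays centred on the median of genes 4 members were lower in both lines (Mmp14, Adamts1, Adamts4 and Adamts5), with the mean of a gene's probe sets 8, and with the actin control value described below 1 (Adamts12). Mmp23 was higher in both lines. Mmp10 and Adamts9 were lower in Q7 cells and higher in Q111 cells. The heat shock effects themselves differed between the lines for 9 members (24.3%, against 5.72% of all genes), 4 with the more positive change in Q111 cells (Mmp3, Mmp10, Adamts9 and Adamts12; 1.21% of all genes) and 5 with the more negative one (Mmp11, Mmp23, Adamts4, Adamts7 and Adamts10; 4.51% of all genes).

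**Figure D1:**
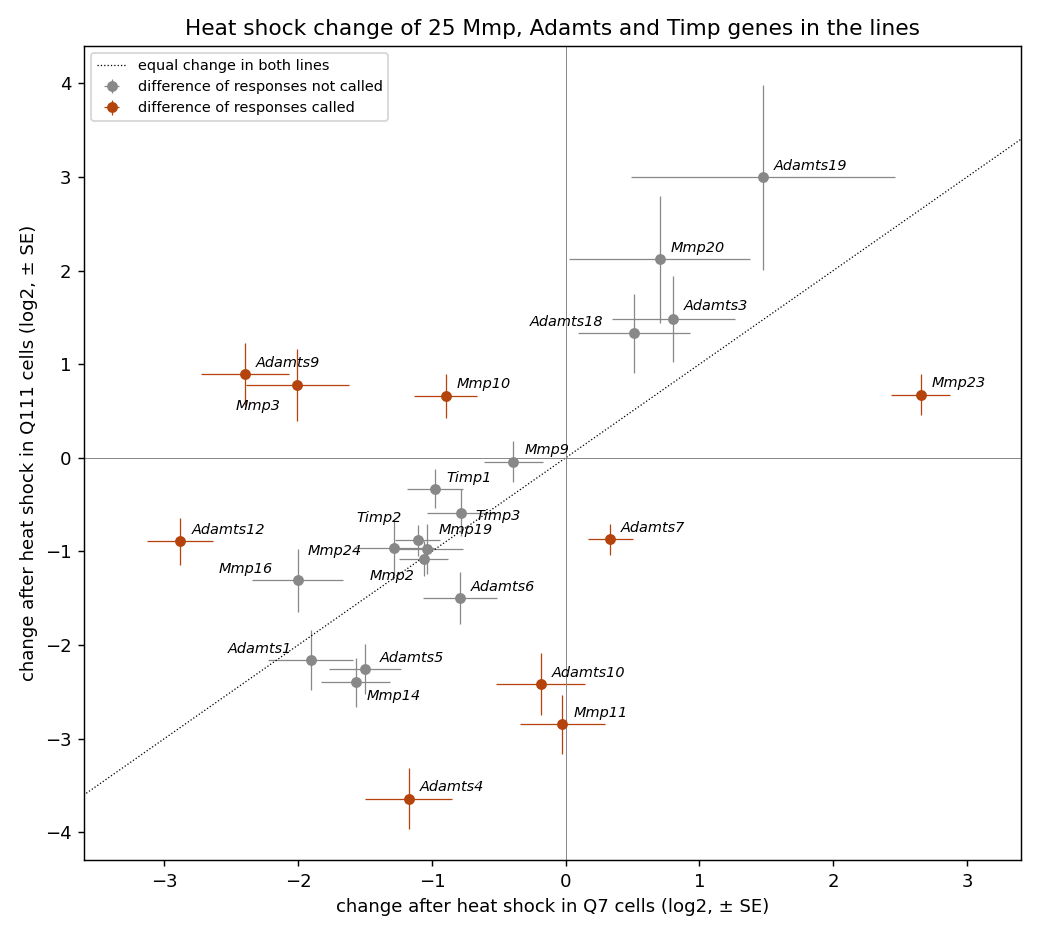
Log2 change after heat shock in Q7 cells (x axis) against Q111 cells (y axis) for the 25 genes above background range in at least 1 group, with bars of 1 SE and a dotted line of equal change. Orange points are the 9 genes whose changes differed between the lines; Mmp3, Mmp10 and Adamts9 lie at upper left, Mmp23 at far right, and Adamts4, Mmp11 and Adamts10 at the bottom.

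Between the untreated lines 11 members were called (29.7%, against 10.8% of all genes), 4 higher in Q111 cells (Mmp2, Mmp19, Adamts4 and Adamts5; 5.11% of all genes) and 7 lower (Mmp3, Mmp10, Mmp13, Mmp16, Adamts9, Adamts12 and Timp1; 5.68% of all genes). Fitted on the 6 untreated arrays alone, 16 members were called, 9 higher and 7 lower. This added Mmp14, Mmp23, Adamts1, Adamts6 and Adamts10, higher in Q111 cells, and Mmp9, lower, and lost Timp1. With the replicate number as a block in that same fit, since the untreated arrays deviated together by number, the count was 18, 10 higher and 8 lower, with all 11 among them and Mmp24 added as well. That block was chosen from these same values and is not given by the labels, so its calls are a description only. The replicate block over all 12 arrays gave 11, with Adamts1 added and Mmp19 lost. These differences stand beside those of the progenitor, neuronal and mesenchymal markers given above, whose part in them was not tested. After heat shock 10 members differed between the lines (27.0%, against 22.1% of all genes), 3 higher in Q111 cells (Mmp2, Mmp19 and Adamts5; 6.58% of all genes) and 7 lower (Mmp10, Mmp11, Mmp16, Mmp23, Adamts7, Adamts10 and Adamts12; 15.5% of all genes). Without heated Q7 array 1 that count was 6.

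Scaling moved the counts. Centring the arrays on the median of genes added 0.35 to the heat shock difference of every gene in Q7 cells, 0.73 in Q111 cells and 0.38 to the difference between the heated lines. As deposited, the median heat shock difference over all genes was already near 0, at 0.0026 in Q7 cells and -0.02 in Q111 cells. Centring moved it away from there. With it 16 members were called in Q7 cells, 2 higher and 14 lower, 27 in Q111 cells, 20 higher and 7 lower, and 17 between the heated lines, 11 higher and 6 lower. The shift moves all genes alike, so these counts are not a result about the members. Of the 18 members called in Q7 cells on the deposited scale 15 kept the call (Mmp19, Adamts6 and Timp3 lost it). In Q111 cells 17 of 24 kept it, and Mmp2, Mmp16, Mmp19, Mmp24, Adamts7, Adamts12 and Timp2, all lower as deposited, lost it. Between the heated lines 9 of 10 did, and Mmp16 lost it. All kept their signs.

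The choice of probe set moved single calls. With the mean of all probe sets of a gene, which gives dim probe sets the same weight, heat shock calls were lost for Mmp24, Adamts4, Adamts9 and Timp3 in Q7 cells and for Mmp16, Mmp23, Mmp24 and Adamts12 in Q111 cells. For the difference of effects Adamts10 and Adamts12 lost the call, between the untreated lines Mmp19, and between the heated lines Mmp16, Adamts10 and Adamts12. Gained were Adamts10 in Q7 cells, Adamts16 in Q111 cells, and Adamts6 and Adamts16 between the untreated lines.

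A control for RNA quality moved with heat shock as well. The 3' minus 5' level of the actin control probe sets, which grows as transcripts are cut short, was 0.54 ± 0.16 (SD, n = 3) in untreated and 1.48 ± 0.12 in heated Q7 cells, and 0.72 ± 0.36 in untreated and 1.25 ± 0.23 in heated Q111 cells. That of the Gapdh control went from 0.70 to 1.08 in Q7 cells and from 0.85 to 1.03 in Q111 cells. With the actin value as a covariate 2 members kept their heat shock call in Q7 cells (Mmp23 and Adamts12). In Q111 cells 11 did, namely Mmp2, Mmp11, Mmp14, Adamts1, Adamts4, Adamts5, Adamts6, Adamts7, Adamts10 and Adamts12, which were lower, and Adamts15, which was higher. For the difference of effects 5 did (Mmp11, Mmp23, Adamts9, Adamts10 and Adamts12). Every called member kept its sign. The median size of the called differences went from 1.23 to 1.05 in Q7 cells and from 1.32 to 1.28 in Q111 cells, while the median SE rose from 0.26 to 0.52 and from 0.29 to 0.41. Single genes moved both ways in Q7 cells. Timp1 went from -0.98 to -0.31, Timp3 from -0.78 to -0.16 and Adamts1 from -1.91 to -1.05. Adamts4 went from -1.17 to -1.57 and Adamts12 from -2.88 to -3.22. The part of RNA quality in the heat shock results was not tested beyond this fit.

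**Figure D2:**
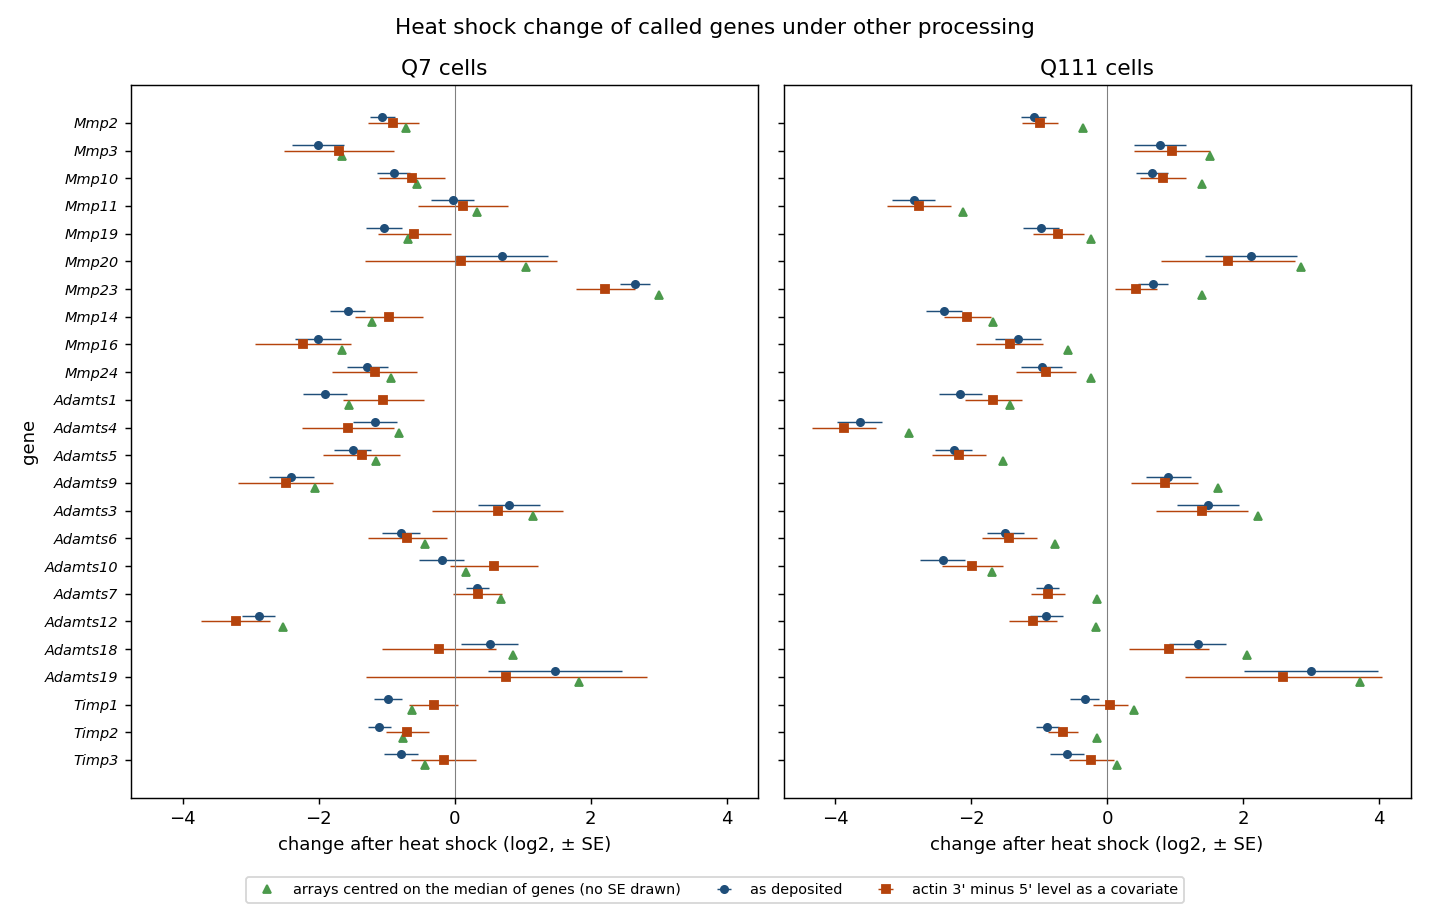
Log2 change after heat shock of the 24 called genes above background range in at least 1 group, in Q7 cells (left) and Q111 cells (right), as deposited, with the actin control value added to the fit, and with arrays centred on the median of genes. Bars are 1 SE (not drawn for centred arrays); centring shifts every gene to the right, by 0.35 in Q7 cells and 0.73 in Q111 cells.

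The collagenases, which open the collagen triple helix, were not above background. Mmp1a, Mmp1b, Mmp8 and Mmp13 were in background range in all 4 groups, with highest group means of 2.70, 2.79, 4.80 and 3.82. Calls at such levels were made for Mmp13, with differences of -0.99 (SE 0.23) for heat shock in Q7 cells and -1.27 (SE 0.23) between the untreated lines, and for Mmp8, with 1.48 (SE 0.46) for heat shock in Q111 cells. No level above background stands behind them, and the call of Mmp8 was lost without untreated Q111 arrays 1 or 2 or heated Q111 array 3 (adjusted p = 0.0628 to 0.0705).

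Of the gelatinases, which cut denatured collagen and basement membrane collagen, Mmp2 was the one clearly detected. Mmp2 measured 9.80, 9.67 and 9.37 in untreated Q7 cells, 8.76, 8.29 and 8.60 in heated Q7 cells, 10.97, 11.07 and 10.86 in untreated Q111 cells and 10.21, 9.72 and 9.73 in heated Q111 cells. All arrays of each heated group lay below those of the untreated group of the same line, and all Q111 arrays lay above the Q7 arrays at the same temperature. Mmp2 fell in both lines, with differences of -1.06 (SE 0.18, adjusted p = 0.00122) in Q7 cells and -1.08 (SE 0.18, adjusted p = 0.000712) in Q111 cells. The difference between these effects was -0.02 (SE 0.26, adjusted p = 0.98). Q111 cells held 2.56-fold more Mmp2 signal untreated, a difference of 1.35 (SE 0.18, adjusted p = 0.000404), and 2.53-fold more after heat shock, a difference of 1.34 (SE 0.18, adjusted p = 0.000401). The second Mmp2 probe set gave -1.45 and -1.41 for heat shock and 1.39 and 1.42 between the lines. Mmp9, the inflammation-linked gelatinase, was above background range only in untreated Q7 cells, at 5.44 ± 0.10 (SD, n = 3), and was called in none of the 5 comparisons. Its difference between the untreated lines, -0.66 (SE 0.22, adjusted p = 0.0907), passed in the fit of the untreated arrays alone (adjusted p = 0.035, and 0.0188 with the replicate block) and without heated Q111 array 2 (adjusted p = 0.035). The heat shock difference of Mmp9 in Q111 cells was -0.04 as deposited, between group means in background range (4.78 and 4.74). On centred arrays, where every gene gained 0.73 in that comparison, it was 0.69 (adjusted p = 0.0152).

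The stromelysins Mmp3 and Mmp10, secreted proteases with broad substrates that also activate other Mmps, set the lines apart. Mmp10 measured 9.0, 9.21 and 8.74 in untreated Q7 cells, 8.26, 7.76 and 8.23 in heated Q7 cells, 3.65, 3.88 and 3.87 in untreated Q111 cells and 4.82, 4.67 and 3.92 in heated Q111 cells. The 6 Q7 arrays lay far above the 6 Q111 arrays, whose group means were in background range. Between the untreated lines the difference was -5.18 (SE 0.24, adjusted p = 1.16e-07), a signal at least 14.3-fold lower in Q111 cells, and after heat shock -3.62 (SE 0.24, adjusted p = 2.19e-06), at least 7.67-fold. Heat shock changed Mmp10 by -0.90 (SE 0.24, adjusted p = 0.0134) in Q7 cells and by 0.66 (SE 0.24, adjusted p = 0.0373) in Q111 cells, with no overlap of arrays in either line; both Q111 group means were in background range. The Q7 call was lost without untreated Q7 array 2 or heated Q7 array 2 (adjusted p = 0.0604), and the Q111 call without untreated Q111 arrays 1, 2 or 3 or heated Q111 arrays 1 or 2 (adjusted p = 0.0652 to 0.13). Between the lines these changes differed by 1.56 (SE 0.33, adjusted p = 0.0228), a call lost without untreated Q7 array 2, heated Q7 array 3 or untreated Q111 arrays 1 or 2 (adjusted p = 0.0509 to 0.0596). Little of a fall in Q111 cells could have been measured from that level.

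Mmp3 measured 8.17, 9.38 and 7.85 in untreated Q7 cells, 6.24, 6.43 and 6.70 in heated Q7 cells, 5.33, 5.41 and 5.60 in untreated Q111 cells and 6.17, 5.59 and 6.91 in heated Q111 cells. Untreated Q7 cells were highest on all 3 arrays, and the other 3 groups lay between 5.33 and 6.91. Mmp3 fell in Q7 cells by 4.02-fold, a difference of -2.01 (SE 0.39, adjusted p = 0.00229). In Q111 cells its difference was 0.78 (SE 0.39, adjusted p = 0.115), with overlapping arrays, and passed without untreated Q7 array 2 or heated Q111 array 2 (adjusted p = 0.0419 to 0.0477). The change in Q111 cells minus that in Q7 cells was 2.79 (SE 0.54, adjusted p = 0.0158). The untreated Q111 mean was 5.45, close above background range, so little of a fall could have been measured there. Mmp3 was 8.11-fold lower in untreated Q111 than Q7 cells, a difference of -3.02 (SE 0.39, adjusted p = 0.000255). After heat shock the difference between the lines was -0.23 (SE 0.39, adjusted p = 0.707), with overlapping arrays.

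Mmp11, a stromelysin that is already active when secreted, behaved otherwise. Mmp11 measured 9.14, 9.19 and 9.67 in untreated Q7 cells, 9.37, 9.09 and 9.48 in heated Q7 cells, 9.32, 9.53 and 9.68 in untreated Q111 cells and 6.91, 7.28 and 5.79 in heated Q111 cells. Heated Q111 cells alone stood lower, between 5.79 and 7.28, where the other 9 arrays lay between 9.09 and 9.68. The change in Q111 cells was -2.85 (SE 0.32, adjusted p = 4.9e-05), a 7.19-fold fall, and that in Q7 cells -0.02 (SE 0.32, adjusted p = 0.968). The effects differed by -2.82 (SE 0.45, adjusted p = 0.00686), and the heated lines by -2.65 (SE 0.32, adjusted p = 0.000157).

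Mmp3 and Mmp10 lie in a run of Mmp genes on chromosome 9 whose order in RefSeq is Mmp13, Mmp12, Mmp1b, Mmp3, Mmp1a, Mmp10, Mmp8, Mmp27 (not analysed here), Mmp20 and Mmp7. Of the 9 measured genes of the run 3 were above background range in at least 1 group (Mmp3, Mmp10 and Mmp20). RefSeq promoter sequences, 250 bases before to 50 bases after the start on build GRCm38.p6, were matched for 23 of the 37 members, 26 promoters in all. These were the 9 measured genes of the run and 14 members outside it. Not matched, and so not searched, were Mmp2, Mmp9, Mmp16, Mmp17, Mmp19, Adamts4, Adamts5, Adamts6, Adamts7, Adamts8, Adamts10, Adamts15, Adamts16 and Adamts19. AP-1 is the dimer of Fos and Jun proteins, best known as a regulator of collagenase and stromelysin promoters, and binds TGACTCA, which reads TGAGTCA on the other strand. The promoters of Mmp3 and Mmp10, the stromelysins that differed between the untreated lines, are shown with those of their neighbour Mmp1a, in background range throughout, and of Adamts1. Of the 14 members searched outside the run, Adamts1 was the one with a TATA box. Capitals mark the AP-1 letters and the TATA box TATAAA.
Mmp3, chr9:7445572-7445871, plus strand: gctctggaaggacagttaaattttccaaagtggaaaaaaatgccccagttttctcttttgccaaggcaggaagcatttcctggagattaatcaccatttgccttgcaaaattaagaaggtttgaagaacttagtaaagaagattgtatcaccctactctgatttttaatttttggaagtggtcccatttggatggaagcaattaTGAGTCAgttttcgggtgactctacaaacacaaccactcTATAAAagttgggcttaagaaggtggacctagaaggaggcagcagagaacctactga
Mmp10, chr9:7502092-7502391, plus strand: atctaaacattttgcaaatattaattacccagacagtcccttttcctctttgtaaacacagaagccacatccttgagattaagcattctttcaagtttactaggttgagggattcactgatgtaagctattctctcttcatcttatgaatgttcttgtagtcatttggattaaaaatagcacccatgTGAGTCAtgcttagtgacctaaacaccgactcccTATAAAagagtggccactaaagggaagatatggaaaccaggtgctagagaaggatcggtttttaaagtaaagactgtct
Mmp1a, chr9:7463891-7464190, plus strand: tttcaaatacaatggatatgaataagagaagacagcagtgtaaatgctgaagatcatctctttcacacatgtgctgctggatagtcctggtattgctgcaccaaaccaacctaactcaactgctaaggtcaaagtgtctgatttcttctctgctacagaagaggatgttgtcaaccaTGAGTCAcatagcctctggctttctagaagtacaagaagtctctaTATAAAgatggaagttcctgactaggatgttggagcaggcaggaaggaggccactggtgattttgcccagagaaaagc
Adamts1, chr16:85803064-85803363, minus strand: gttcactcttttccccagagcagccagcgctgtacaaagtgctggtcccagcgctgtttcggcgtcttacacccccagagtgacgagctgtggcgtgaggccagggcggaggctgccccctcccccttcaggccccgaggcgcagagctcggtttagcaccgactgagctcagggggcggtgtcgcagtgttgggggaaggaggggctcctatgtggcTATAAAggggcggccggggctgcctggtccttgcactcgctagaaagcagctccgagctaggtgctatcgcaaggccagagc

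The AP-1 letters begin at -46 from the start in Mmp3, -63 in Mmp10 and -73 in Mmp1a. Searched on both strands, they were in 7 of the 26 member promoters (26.9%), against 5.20% of 32851 promoters, and all 7 belong to the run on chromosome 9 (all its measured genes but Mmp8 and Mmp20). Of these 7 genes 2 (Mmp3 and Mmp10) were above background range in at least 1 group and 5 in none. TATAAA was in 10 promoters (38.5%, against 13.6%), those of all 9 genes of the run and of Adamts1. The heat shock element, inverted GAA repeats bound by Hsf1, was in 0 of the 26, against 0.603% of all promoters. A match is a description of letters in this window.

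**Figure D3:**
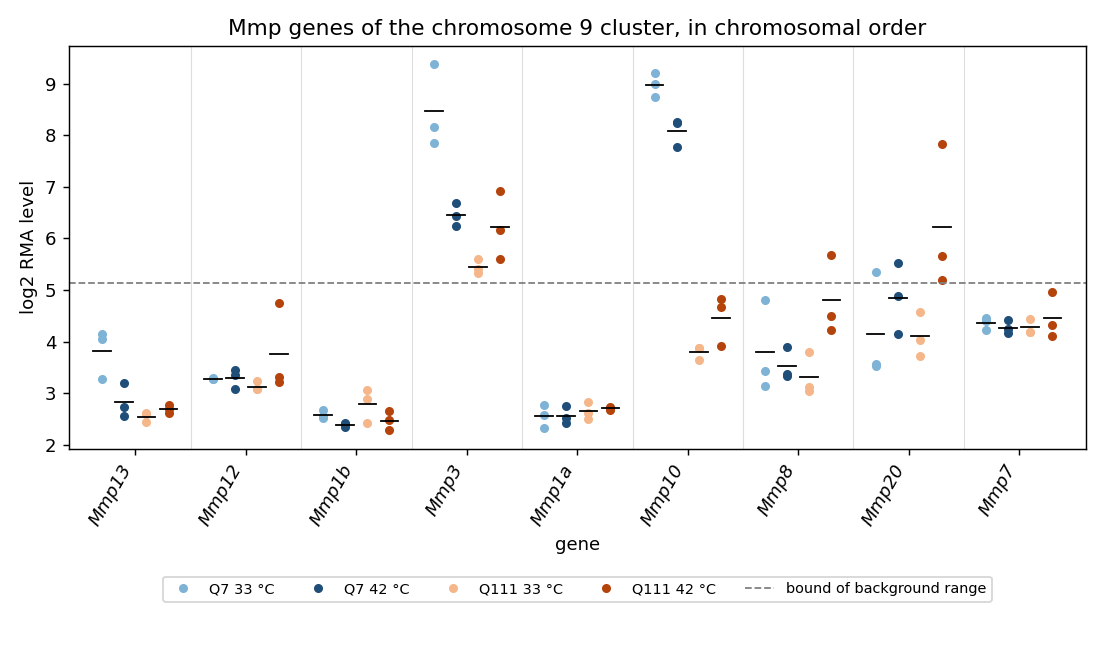
Log2 RMA level on each array (points, coloured by group; bars are group means) of the 9 measured genes of the Mmp run on chromosome 9, in their order along the chromosome, with the bound of background range at 5.14 as a dashed line. Mmp3 and Mmp10 rise clear of it in Q7 cells, and the Mmp20 points above it are mostly heated Q111 arrays.

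Among the other secreted Mmps, Mmp7 and Mmp12 were in background range throughout. Mmp19, a secreted protease of basement membrane components, measured 8.72, 8.36 and 8.58 in untreated Q7 cells, 7.26, 7.85 and 7.44 in heated Q7 cells, 10.06, 9.10 and 9.43 in untreated Q111 cells and 8.60, 8.91 and 8.16 in heated Q111 cells. Heated arrays were below untreated ones in both lines, and Q111 arrays above Q7 arrays at each temperature. The heat shock differences were -1.03 (SE 0.27, adjusted p = 0.0119) in Q7 cells and -0.97 (SE 0.27, adjusted p = 0.0111) in Q111 cells. Between the lines Mmp19 differed by 0.97 (SE 0.27, adjusted p = 0.0364) untreated and by 1.04 (SE 0.27, adjusted p = 0.0162) after heat shock. The first of these was lost without untreated Q7 arrays 1, 2 or 3, heated Q7 array 3, untreated Q111 arrays 1 or 3 or heated Q111 array 1 (adjusted p = 0.0516 to 0.14) and the second without heated Q7 arrays 1 or 3 or heated Q111 array 2 (adjusted p = 0.053 to 0.0703). The untreated call was also lost with the replicate block over all arrays (adjusted p = 0.0545) and with the mean of its probe sets (0.53, adjusted p = 0.124). The second Mmp19 probe set, in background range, gave 0.09 there.

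Mmp23, an unusual Mmp held in the membrane by its N-terminal end and released by cleavage, was the one member called higher after heat shock in Q7 cells. Mmp23 measured 5.47, 5.58 and 5.47 in untreated Q7 cells, 8.17, 7.71 and 8.60 in heated Q7 cells, 6.16, 6.28 and 5.95 in untreated Q111 cells and 6.58, 7.15 and 6.68 in heated Q111 cells. All heated Q7 arrays lay above every other array. The rise in Q7 cells was 6.29-fold, a difference of 2.65 (SE 0.22, adjusted p = 1.71e-05). In Q111 cells the difference was 0.67 (SE 0.22, adjusted p = 0.0268), a call lost without untreated Q111 arrays 1 or 3 or heated Q111 array 2 (adjusted p = 0.0573 to 0.0948). The effects differed by -1.98 (SE 0.31, adjusted p = 0.0068). The second probe set gave 1.65 in Q7 cells and 0.19 in Q111 cells. Between the lines the difference was 0.62 (SE 0.22, adjusted p = 0.115) untreated, called in the fit of the untreated arrays alone (adjusted p = 0.0274, and 0.0103 with the replicate block), and -1.36 (SE 0.22, adjusted p = 0.00124) after heat shock.

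Mmp20, the enamel protease, measured 3.53, 3.56 and 5.35 in untreated Q7 cells, 4.14, 5.53 and 4.88 in heated Q7 cells, 4.03, 3.73 and 4.58 in untreated Q111 cells and 5.19, 5.66 and 7.84 in heated Q111 cells. Heated Q111 array 3 was the highest by a wide margin, and the untreated groups were in background range. The difference in Q111 cells was 2.12 (SE 0.68, adjusted p = 0.0234) and that in Q7 cells 0.70 (SE 0.68, adjusted p = 0.489). The Q111 call was lost without untreated Q111 arrays 1 or 2 or heated Q111 array 3 (adjusted p = 0.06 to 0.0772).

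**Figure D4:**
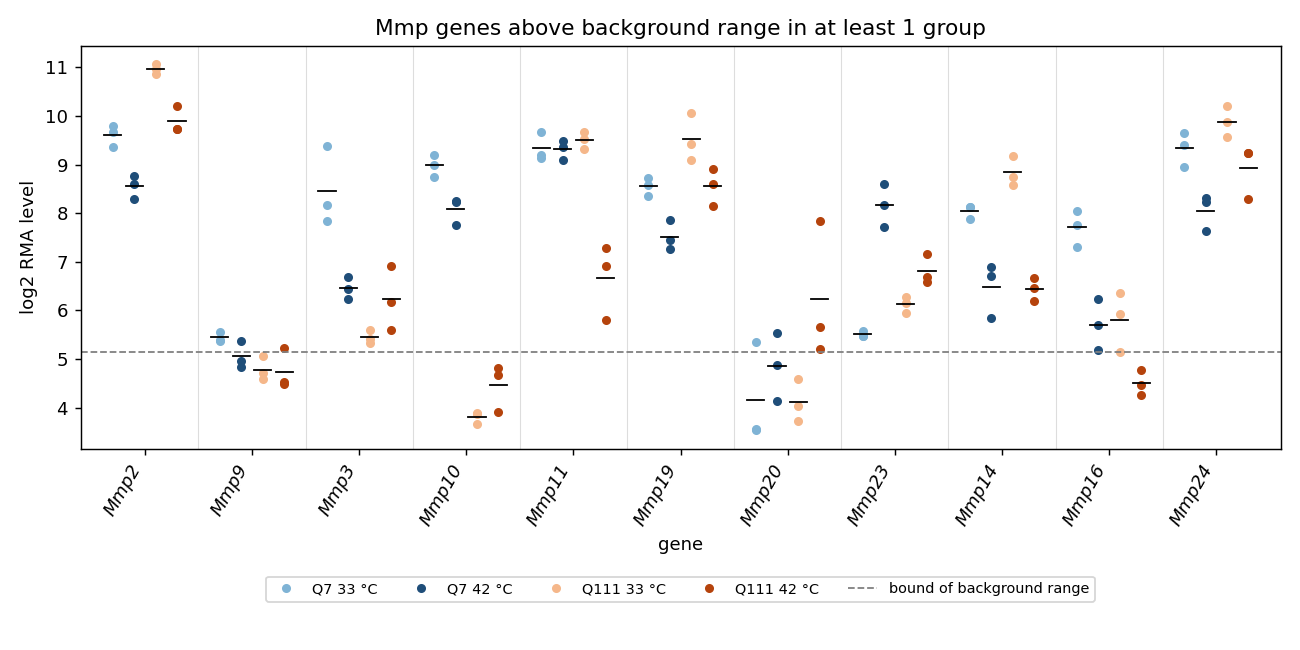
Log2 RMA level on each array (points) and group mean (bars) of the Mmp genes above background range in at least 1 group, coloured by line and temperature, with the bound of background range at 5.14 as a dashed line. Mmp10 separates the lines, Mmp11 is low only in heated Q111 cells, and Mmp23 is highest in heated Q7 cells.

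Of the membrane-type Mmps, which cut matrix at the cell surface and include activators of Mmp2, 3 of 4 were detected, and all 3 fell in both lines by their brightest probe sets. With the mean of all probe sets the call was lost for Mmp16 in Q111 cells and for Mmp24 in both lines, as described at each gene. Mmp14, the main cell-surface collagenase, measured 8.13, 8.13 and 7.88 in untreated Q7 cells, 6.89, 5.84 and 6.70 in heated Q7 cells, 9.18, 8.59 and 8.75 in untreated Q111 cells and 6.66, 6.47 and 6.20 in heated Q111 cells. Heated arrays were below untreated arrays in both lines without overlap. The fall was 2.97-fold in Q7 cells, a difference of -1.57 (SE 0.26, adjusted p = 0.000915), and 5.28-fold in Q111 cells, a difference of -2.40 (SE 0.26, adjusted p = 4.15e-05). Its other 2 probe sets gave -1.72 and -1.68 in Q7 cells and -2.75 and -1.97 in Q111 cells. The difference of effects was -0.83 (SE 0.37, adjusted p = 0.223) and passed without heated Q7 array 2 (adjusted p = 0.0415). Untreated Q111 cells were higher by 0.79 (SE 0.26, adjusted p = 0.0839), called in the fit of the untreated arrays alone (adjusted p = 0.0271, and 0.00895 with the replicate block) and without heated Q7 array 2 (adjusted p = 0.0198). The other 2 probe sets gave 0.29 and 0.07 between the untreated lines. With the mean of all 3 the difference was 0.385 (adjusted p = 0.417), so its size rests on 1 of 3 probe sets.

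Mmp16, a transmembrane relative of Mmp14, measured 8.05, 7.76 and 7.31 in untreated Q7 cells, 6.23, 5.18 and 5.71 in heated Q7 cells, 6.37, 5.92 and 5.14 in untreated Q111 cells and 4.26, 4.78 and 4.46 in heated Q111 cells. Untreated Q7 cells were highest and heated Q111 cells lowest, in background range. Heat shock gave -2.0 (SE 0.34, adjusted p = 0.00103) in Q7 cells and -1.31 (SE 0.34, adjusted p = 0.00835) in Q111 cells, and the difference of Q111 from Q7 cells was -1.90 (SE 0.34, adjusted p = 0.00285) untreated and -1.20 (SE 0.34, adjusted p = 0.0252) after heat shock. The last call was lost without heated Q7 arrays 1 or 3 or heated Q111 arrays 1 or 3 (adjusted p = 0.0514 to 0.108). The other 3 Mmp16 probe sets, of which 1 was above background range in any group, gave -0.56, -0.68 and -0.28 in Q7 cells but 0.65, 0.07 and 0.57 in Q111 cells, and 0.27, 0.17 and 0.37 between the heated lines. The mean of all 4 gave -0.0032 (adjusted p = 0.99) for heat shock in Q111 cells and -0.098 (adjusted p = 0.748) between the heated lines, so both calls rest on 1 of 4 probe sets. Mmp24, a membrane-type Mmp of neural cells, measured 8.94, 9.66 and 9.41 in untreated Q7 cells, 8.31, 7.63 and 8.22 in heated Q7 cells, 9.58, 10.20 and 9.88 in untreated Q111 cells and 9.23, 9.24 and 8.30 in heated Q111 cells. Its heat shock differences were -1.28 (SE 0.30, adjusted p = 0.00681) in Q7 cells and -0.96 (SE 0.30, adjusted p = 0.0202) in Q111 cells, each without overlap, and the second was lost without untreated Q111 array 2 or heated Q111 array 3 (adjusted p = 0.0672 to 0.0784). Its other 2 probe sets, 1 just above background range and 1 within it, gave 0.17 and -0.13 in Q7 cells and 0.14 and -0.20 in Q111 cells. With the mean of all 3 the changes were -0.42 (adjusted p = 0.104) and -0.34 (adjusted p = 0.133), so these calls rest on 1 of 3 probe sets. Between the lines Mmp24 differed by 0.55 (SE 0.30, adjusted p = 0.358) untreated, called in the fit of the untreated arrays alone only with the replicate block (adjusted p = 0.0154), and by 0.87 (SE 0.30, adjusted p = 0.0581) after heat shock, which passed without heated Q111 array 3 (adjusted p = 0.00884). Mmp17, anchored by lipid, stayed in background range.

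The Adamts proteases that cut proteoglycans numbered 7, of which Adamts1, Adamts4, Adamts5 and Adamts9 were above background range in at least 1 group. By their brightest probe sets all 4 fell in Q7 cells and 3 in Q111 cells. With the mean of all probe sets the Q7 calls of Adamts4 (-0.50, adjusted p = 0.194) and Adamts9 (-0.74, adjusted p = 0.0969) were lost. Adamts1, which cuts versican and aggrecan, measured 9.21, 8.84 and 8.46 in untreated Q7 cells, 7.30, 6.40 and 7.08 in heated Q7 cells, 9.95, 9.45 and 9.64 in untreated Q111 cells and 8.20, 7.21 and 7.15 in heated Q111 cells. Every heated array was below every untreated array. The fall was 3.75-fold in Q7 cells, a difference of -1.91 (SE 0.32, adjusted p = 0.000985), and 4.46-fold in Q111 cells, a difference of -2.16 (SE 0.32, adjusted p = 0.000294). Between the untreated lines the difference was 0.84 (SE 0.32, adjusted p = 0.141), called in the fit of the untreated arrays alone (adjusted p = 0.0423, and 0.00667 with the replicate block) and with the replicate block over all arrays (adjusted p = 0.0311).

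Adamts4, an aggrecanase, measured 8.78, 8.61 and 8.64 in untreated Q7 cells, 7.40, 7.57 and 7.54 in heated Q7 cells, 9.82, 10.87 and 10.42 in untreated Q111 cells and 7.2, 7.08 and 5.90 in heated Q111 cells. Untreated Q111 cells were highest and heated Q111 cells lowest, so the order of the group means turned over with heat. The change was -3.64 (SE 0.33, adjusted p = 1.48e-05) in Q111 cells, a 12.5-fold fall, against -1.17 (SE 0.33, adjusted p = 0.018) in Q7 cells, a call lost without untreated Q7 array 1 (adjusted p = 0.057). The responses of the lines differed by -2.47 (SE 0.46, adjusted p = 0.0136). Untreated Q111 cells were higher by 1.69 (SE 0.33, adjusted p = 0.00497); after heat shock the difference was -0.78 (SE 0.33, adjusted p = 0.115), with no overlap of arrays. The second, dimmer probe set gave 0.17 in Q7 cells and -1.40 in Q111 cells, and a difference of effects of -1.57.

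Adamts5, the other main aggrecanase, measured 9.15, 8.18 and 8.88 in untreated Q7 cells, 7.40, 6.86 and 7.45 in heated Q7 cells, 10.72, 10.03 and 10.52 in untreated Q111 cells and 8.09, 8.40 and 8.02 in heated Q111 cells. Heated arrays were lower in both lines, and Q111 arrays were higher at each temperature. Heat shock gave -1.5 (SE 0.27, adjusted p = 0.00153) in Q7 cells and -2.26 (SE 0.27, adjusted p = 7.67e-05) in Q111 cells, and the difference of effects was -0.76 (SE 0.38, adjusted p = 0.283). Between the lines Adamts5 differed by 1.69 (SE 0.27, adjusted p = 0.00135) untreated and 0.93 (SE 0.27, adjusted p = 0.0289) after heat shock. The last was lost without heated Q7 arrays 1 or 2 or heated Q111 arrays 1 or 2 (adjusted p = 0.0516 to 0.0881). Of its other 3 probe sets 2 gave falls in both lines (-1.76 and -1.44 in Q7 cells, -2.33 and -2.06 in Q111 cells), and the dimmest gave 0.80 and -0.34.

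By its brightest probe set Adamts9, a versican-cutting protease, took the opposite course in the lines. Adamts9 measured 8.45, 8.79 and 7.43 in untreated Q7 cells, 5.87, 5.89 and 5.72 in heated Q7 cells, 3.70, 3.88 and 4.24 in untreated Q111 cells and 4.44, 4.65 and 5.41 in heated Q111 cells. Untreated Q7 cells were highest and untreated Q111 cells lowest, in background range. In Q7 cells the change was -2.40 (SE 0.33, adjusted p = 0.000301), a 5.27-fold fall. In Q111 cells it was 0.90 (SE 0.33, adjusted p = 0.0436), a rise between group means in background range, whose call was lost without untreated Q7 array 1, heated Q7 arrays 1, 2 or 3, untreated Q111 arrays 1 or 2 or heated Q111 arrays 2 or 3 (adjusted p = 0.0534 to 0.151). The replicate block over all arrays lost that Q111 call as well. The effects differed by 3.29 (SE 0.47, adjusted p = 0.00416), where little of a fall in Q111 cells could have been measured. Between the untreated lines the difference was -4.29 (SE 0.33, adjusted p = 5.4e-06), a signal at least 8.45-fold lower in Q111 cells. After heat shock it was -0.99 (SE 0.33, adjusted p = 0.0529), which passed without untreated Q7 arrays 2 or 3 or heated Q111 array 3 (adjusted p = 0.016 to 0.0425). The 2 other probe sets gave 0.73 and -0.55 in Q7 cells and 1.80 and 0.83 in Q111 cells. The first of them had a mean of 6.10 in heated Q111 cells, above background range. Between the untreated lines they gave -0.22 and -1.18. With the mean of all 3 probe sets that difference was -1.89 (adjusted p = 0.00137), so its size rests on 1 of 3 probe sets. In background range, Adamts15 and Adamts20 were called higher in heated Q111 cells, by 0.93 and 0.60, and Adamts8 was not called.

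Of the 7 Adamts genes in the remaining group, the heat shock effects differed between the lines for 3 (Adamts7, Adamts10 and Adamts12), 4 were lower after heat shock in Q111 cells and 2 in Q7 cells. Adamts12, which cuts cartilage oligomeric matrix protein, measured 8.70, 8.5 and 8.07 in untreated Q7 cells, 5.87, 5.12 and 5.63 in heated Q7 cells, 4.91, 5.33 and 4.56 in untreated Q111 cells and 4.22, 4.02 and 3.89 in heated Q111 cells. Untreated Q7 cells stood far above the other groups, and both Q111 groups were in background range. Adamts12 fell in Q7 cells by 7.36-fold, a difference of -2.88 (SE 0.25, adjusted p = 1.94e-05), and changed by -0.89 (SE 0.25, adjusted p = 0.0118) in Q111 cells, a call lost without untreated Q111 array 2 (adjusted p = 0.0523). With the mean of both its probe sets the Q111 value was 0.06 (adjusted p = 0.849); the second probe set was in background range. The effects differed by 1.99 (SE 0.35, adjusted p = 0.0103), and with the mean of both probe sets by 1.21 (adjusted p = 0.062); both Q111 levels were in background range, where little of a fall can be measured. The lines differed by -3.48 (SE 0.25, adjusted p = 2.72e-06) untreated, at least 9.28-fold, and by -1.5 (SE 0.25, adjusted p = 0.0013) after heat shock. Adamts7, its close relative, measured 5.93, 6.25 and 5.78 in untreated Q7 cells, 6.36, 6.06 and 6.55 in heated Q7 cells, 5.95, 6.17 and 5.97 in untreated Q111 cells and 5.30, 5.14 and 5.03 in heated Q111 cells. Heated Q111 arrays were the lowest. The change was -0.87 (SE 0.17, adjusted p = 0.0016) in Q111 cells and 0.33 (SE 0.17, adjusted p = 0.169) in Q7 cells, with a difference of effects of -1.21 (SE 0.24, adjusted p = 0.0166), lost without heated Q7 array 3 (adjusted p = 0.0545), and of the heated lines of -1.17 (SE 0.17, adjusted p = 0.000575).

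Adamts10, a protease of fibrillin microfibrils, measured 6.96, 6.72 and 6.48 in untreated Q7 cells, 6.70, 5.98 and 6.92 in heated Q7 cells, 8.0, 7.49 and 7.47 in untreated Q111 cells and 6.0, 4.98 and 4.72 in heated Q111 cells. Untreated Q111 arrays were the highest; heated Q111 cells had the lowest mean, and their arrays overlapped those of heated Q7 cells. The change was -2.42 (SE 0.33, adjusted p = 0.000185) in Q111 cells, a 5.35-fold fall, and -0.19 (SE 0.33, adjusted p = 0.724) in Q7 cells. The difference of effects was -2.23 (SE 0.47, adjusted p = 0.0216), lost without untreated Q7 arrays 2 or 3, heated Q7 arrays 1 or 3 or untreated Q111 array 1 (adjusted p = 0.0507 to 0.0671). The heated lines differed by -1.30 (SE 0.33, adjusted p = 0.0164), lost without heated Q7 arrays 1 or 3 or heated Q111 array 3 (adjusted p = 0.0506 to 0.0754). Untreated Q111 cells were higher by 0.93 (SE 0.33, adjusted p = 0.115), called in the fit of the untreated arrays alone (adjusted p = 0.0174, and 0.00174 with the replicate block) and without heated Q111 array 1 (adjusted p = 0.0407). The other probe set of Adamts10 gave -1.20 in Q7 cells, -0.81 in Q111 cells, 0.38 for the difference of effects, -0.30 between the untreated and 0.08 between the heated lines, so the difference of effects and both differences between the lines rest on 1 of 2 probe sets. With the mean of both, the difference of effects was -0.92 (adjusted p = 0.139), that between the heated lines -0.61 (adjusted p = 0.085) and the change in Q7 cells -0.69 (adjusted p = 0.0415).

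Adamts6, the paralog of Adamts10, measured 6.39, 6.62 and 6.77 in untreated Q7 cells, 6.22, 5.28 and 5.91 in heated Q7 cells, 6.98, 7.48 and 7.50 in untreated Q111 cells and 6.01, 6.14 and 5.33 in heated Q111 cells. Heated arrays were below untreated ones in each line. Heat shock gave -1.5 (SE 0.27, adjusted p = 0.00115) in Q111 cells and -0.79 (SE 0.27, adjusted p = 0.049) in Q7 cells. The Q7 call was lost without untreated Q7 arrays 1, 2 or 3, heated Q7 arrays 2 or 3, untreated Q111 arrays 2 or 3 or heated Q111 array 1 (adjusted p = 0.0583 to 0.196), and with the replicate block over all arrays. Between the untreated lines the difference was 0.73 (SE 0.27, adjusted p = 0.142), called in the fit of the untreated arrays alone (adjusted p = 0.0423, and 0.00559 with the replicate block).

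Adamts3, Adamts18 and Adamts19 were called in 1 of the 5 comparisons, higher in heated Q111 cells, and lay near or below the bound in most groups. Adamts3, which removes the N-terminal propeptide of procollagens and activates the lymphatic growth factor Vegfc, measured 2.94, 3.22 and 4.29 in untreated Q7 cells, 4.0, 4.55 and 4.30 in heated Q7 cells, 3.51, 3.45 and 4.18 in untreated Q111 cells and 4.62, 4.66 and 6.32 in heated Q111 cells. Adamts18 measured 3.79, 4.16 and 5.33 in untreated Q7 cells, 4.78, 5.38 and 4.67 in heated Q7 cells, 3.82, 4.65 and 4.67 in untreated Q111 cells and 5.15, 5.63 and 6.35 in heated Q111 cells. Adamts19 measured 3.65, 3.13 and 6.28 in untreated Q7 cells, 4.93, 6.78 and 5.79 in heated Q7 cells, 3.25, 4.20 and 6.15 in untreated Q111 cells and 6.85, 6.49 and 9.24 in heated Q111 cells. In all 3 genes heated Q111 array 3 was the highest of the 12, and in the untreated Q7 cells array 3 was the highest of its group. The differences in Q111 cells were 1.49 (SE 0.46, adjusted p = 0.0204) for Adamts3, 1.33 (SE 0.42, adjusted p = 0.0222) for Adamts18 and 3.0 (SE 0.99, adjusted p = 0.0272) for Adamts19. The calls were lost without untreated Q111 arrays 1 or 2 or heated Q111 array 3 (adjusted p = 0.0573 to 0.069) for Adamts3, without untreated Q111 array 1 or heated Q111 array 3 (adjusted p = 0.0765 to 0.0879) for Adamts18 and without untreated Q111 arrays 1 or 2 or heated Q111 array 3 (adjusted p = 0.0787 to 0.105) for Adamts19. In Q7 cells the differences were 0.80, 0.51 and 1.48, not called, and the differences of effects were not called either. Adamts16 stayed in background range.

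**Figure D5:**
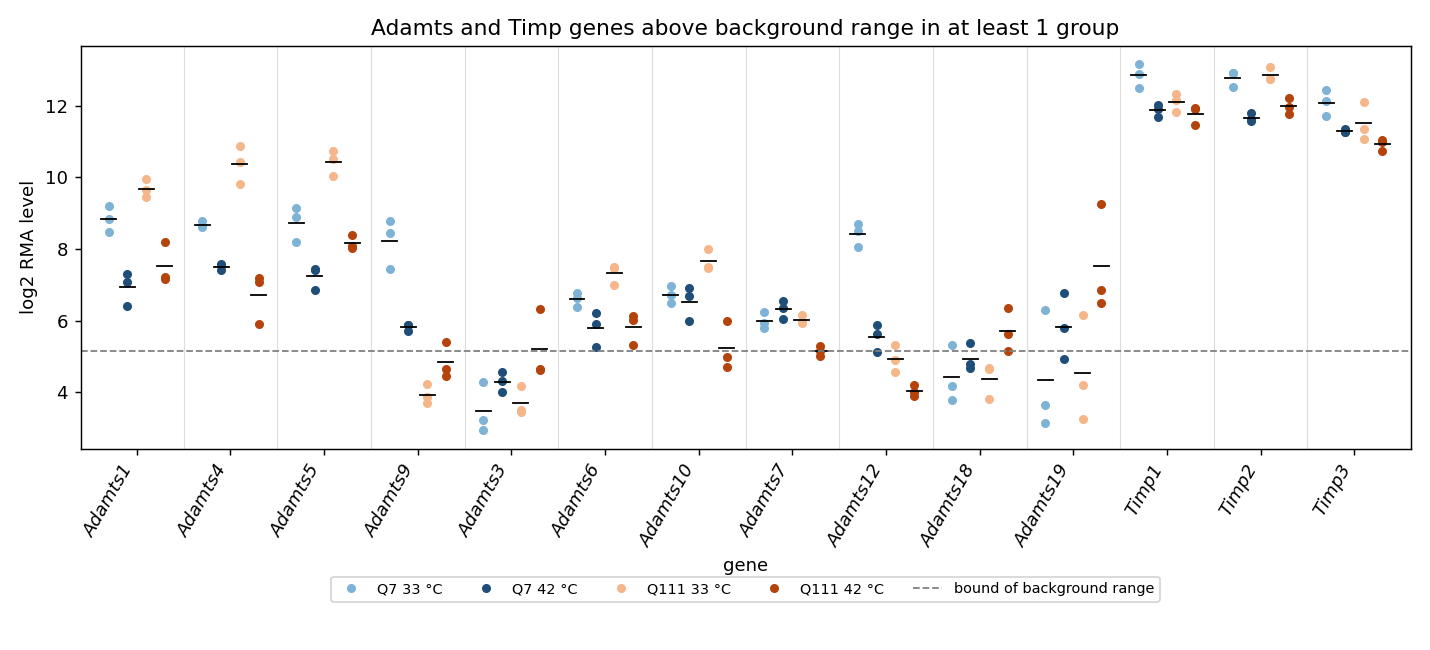
Log2 RMA level on each array (points) and group mean (bars) of the Adamts and Timp genes above background range in at least 1 group, coloured by line and temperature, with the bound of background range at 5.14 as a dashed line. Adamts9 and Adamts12 are high in untreated Q7 cells only, Adamts4 drops from 10.37 to 6.73 in Q111 cells, and the 3 Timps stay far above the bound.

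Of the 4 inhibitors, Timp1, Timp2 and Timp3 were well above background range on every array and Timp4 in background range. All 3 were called lower after heat shock in Q7 cells and 1, Timp2, in Q111 cells. Timp1, an inducible inhibitor of most Mmps, measured 12.87, 13.15 and 12.50 in untreated Q7 cells, 12.01, 11.68 and 11.91 in heated Q7 cells, 12.32, 11.81 and 12.16 in untreated Q111 cells and 11.94, 11.89 and 11.45 in heated Q111 cells. Untreated Q7 arrays were the highest. Heat shock gave -0.98 (SE 0.21, adjusted p = 0.0043) in Q7 cells and -0.33 (SE 0.21, adjusted p = 0.208) in Q111 cells; the difference of effects was 0.64 (SE 0.29, adjusted p = 0.239). Untreated Q111 cells differed from Q7 cells by -0.75 (SE 0.21, adjusted p = 0.0411), a call lost without untreated Q7 arrays 1 or 2, heated Q7 arrays 1 or 3 or untreated Q111 arrays 2 or 3 (adjusted p = 0.0551 to 0.175).

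Timp2, which inhibits Mmps and with Mmp14 forms the complex that activates the precursor of Mmp2, measured 12.90, 12.90 and 12.51 in untreated Q7 cells, 11.79, 11.57 and 11.64 in heated Q7 cells, 13.09, 12.75 and 12.75 in untreated Q111 cells and 12.21, 11.77 and 11.95 in heated Q111 cells. Heated arrays were below untreated ones in both lines, and the lines overlapped at each temperature. The heat shock differences were -1.11 (SE 0.17, adjusted p = 0.000547) in Q7 cells and -0.88 (SE 0.17, adjusted p = 0.00145) in Q111 cells. Its 6 probe sets did not move alike. The second brightest gave -0.07 in Q7 cells and was called higher, by 0.42, in Q111 cells, the one case among all members where another probe set above background range was called in the opposite direction. The other 4 gave -0.91 to -1.58 in Q7 cells and -0.59 to -2.19 in Q111 cells.

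Timp3, the inhibitor bound to the matrix, measured 12.42, 12.11 and 11.70 in untreated Q7 cells, 11.35, 11.27 and 11.27 in heated Q7 cells, 12.09, 11.07 and 11.34 in untreated Q111 cells and 11.04, 10.73 and 10.98 in heated Q111 cells. Heat shock gave -0.78 (SE 0.25, adjusted p = 0.0343) in Q7 cells and -0.59 (SE 0.25, adjusted p = 0.0734) in Q111 cells, without overlap in either line. The Q7 call was lost without untreated Q7 arrays 1 or 2 or heated Q7 arrays 1, 2 or 3 (adjusted p = 0.0635 to 0.13), and the Q111 difference passed without untreated Q111 array 2 (adjusted p = 0.0303). Its 3 other probe sets gave -0.85, -0.49 and -0.61 in Q7 cells, none called. Between the untreated lines the difference was -0.58 (SE 0.25, adjusted p = 0.213), which passed without untreated Q111 array 1 (adjusted p = 0.0242).

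Genes that switch on, restrain or clear these proteases were read from lists of the pathway. Their shares called after heat shock are read against those of all genes, 12.3% higher and 18.1% lower in Q7 cells and 20.0% higher and 28.2% lower in Q111 cells. Of 20 activators, inhibitors and clearance receptors, all measured, 1 was higher (5%) and 7 lower (35%) in Q7 cells, and 3 were higher (15%) and 9 lower (45%) in Q111 cells. Their median differences were -0.32 and -0.35. Reck, a membrane-anchored inhibitor of Mmps, had means of 7.34 in untreated and 4.82 in heated Q7 cells and of 7.51 and 5.02 in Q111 cells. Its differences were -2.52 (SE 0.29, adjusted p = 8.81e-05) and -2.49 (SE 0.29, adjusted p = 6.03e-05). Thrombospondin Thbs1, which binds Mmps and promotes their uptake, changed by -2.49 (SE 0.26) in Q7 and -2.15 (SE 0.26) in Q111 cells. The Adamts-like gene Adamtsl3, which has no protease domain, fell by 3.71-fold in Q7 cells, a difference of -1.89 (SE 0.46), and was in background range in both Q111 groups, with -5.58 (SE 0.46) between the untreated lines. Pcsk5, a proprotein convertase, rose by 2.49 (SE 0.77) in Q111 cells, at least 2.76-fold, from an untreated mean in background range (4.34).

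Of 10 measured genes of the plasminogen system, which activates several Mmps, 2 were higher (20%) and 2 lower (20%) in Q7 cells, and 3 higher (30%) and 1 lower (10%) in Q111 cells, with medians of 0.22 and 0.37. The activator Plau rose by 1.30 (SE 0.31) in Q7 and 2.09 (SE 0.31) in Q111 cells, while its receptor Plaur fell, with -1.84 (SE 0.18) and -0.82 (SE 0.18) and a difference of effects of 1.02 (SE 0.26, adjusted p = 0.0431). Plau was in background range in untreated Q7 cells (5.07). The plasmin inhibitor Serpinf2 rose by 1.56 (SE 0.30) and 2.30 (SE 0.30), and Serpini1 by 1.35 (SE 0.32) in Q111 cells. The untreated means of Serpinf2 were in background range (4.18 in Q7 and 4.07 in Q111 cells).

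Of 14 Adam proteases and regulators, membrane-bound relatives that shed cell surface proteins, 1 was higher (7.14%) and 2 were lower (14.3%) in Q7 cells, both shares under those of all genes, and 1 was higher (7.14%) and 5 were lower (35.7%) in Q111 cells, with medians of -0.06 and -0.35. Adam8 rose by 2.12 (SE 0.31) and Adam12 changed by -1.62 (SE 0.46) in Q7 cells. Adam19 changed by -2.65 (SE 0.37) in Q111 cells, and Adam22, which lacks protease activity, by -1.61 (SE 0.25) and -1.69 (SE 0.25). Adam23 rose by 3.22 (SE 0.84) in Q111 cells. Of 14 cathepsins and cystatins 3 were higher (21.4%) and 1 lower (7.14%) in Q7 cells, and 4 higher (28.6%) and 2 lower (14.3%) in Q111 cells, with medians of 0.10 and 0.16. The collagen-cutting cathepsin Ctsk rose by 1.97 (SE 0.17) and 1.68 (SE 0.17), and the cystatin Cst6 by 0.75 (SE 0.24) and 1.38 (SE 0.24). The untreated means of Ctsk were in background range (4.24 in Q7 and 4.31 in Q111 cells), as was that of Cst6 in Q111 cells (5.04). Ctsz changed by -0.66 (SE 0.19) in Q7 cells, and Ctsc rose by 1.73 (SE 0.60) in Q111 cells, from an untreated mean in background range (4.29). Of 5 astacin proteases and enhancers, which remove the other end of procollagens, 1 was lower (20%) in Q7 cells, and 2 were higher (40%) and 1 lower (20%) in Q111 cells, with medians of 0.19 and -0.01. The enhancer Pcolce changed by -0.75 (SE 0.12) and -0.52 (SE 0.12), and Pcolce2 rose by 0.82 (SE 0.23) in Q111 cells.

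Of 13 measured matrix substrates 3 were higher (23.1%) and 5 lower (38.5%) in Q7 cells, and 2 higher (15.4%) and 7 lower (53.8%) in Q111 cells, with medians of -0.23 and -0.84. Versican (Vcan), a substrate of Adamts1, Adamts4, Adamts5 and Adamts9, changed by -1.65 (SE 0.28) in Q7 and -1.79 (SE 0.28) in Q111 cells. Aggrecan (Acan) changed by -1.92 (SE 0.26) in Q111 cells and 0.19 (SE 0.26) in Q7 cells, with a difference of effects of -2.10 (SE 0.37, adjusted p = 0.00991). Fibrillin Fbn2 changed by -3.50 (SE 0.36) in Q111 cells and 0.36 (SE 0.36) in Q7 cells, with a difference of effects of -3.86 (SE 0.51, adjusted p = 0.00316). In Q7 cells its means were 5.01 untreated, in background range, and 5.37 heated, so little of a fall could have been measured there. Decorin (Dcn) changed by -1.25 (SE 0.23) in Q7 and 1.11 (SE 0.23) in Q111 cells, with 2.35 (SE 0.32, adjusted p = 0.00357) between the effects. Col2a1 rose by 1.43 (SE 0.29) in Q7 cells, from an untreated mean in background range (5.09). Levels are RNA, and protein amount or protease activity was not measured here.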

How the data were processed

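The authors deposited log2 levels for each probe set of 12 Affymetrix arrays, made with RMA (background correction, quantile normalization and summary of probes), per the submitters' processing notes. Its software, version and chip file were not given in the sources used here. Of 45101 probe sets 64 were controls, 34945 named 1 gene, 932 several and 9160 none here; 34741 were matched by gene identifier, and the rest of the named ones kept the symbol of the platform table. Each of 18193 genes was represented by its probe set with the highest mean; 70 probe sets named members, and 19 members had more than 1. limma (3.58.1, R 4.3.3) fitted 4 group means to all arrays and tested 5 contrasts, two-sided, with Benjamini-Hochberg adjustment. The fit was tested on simulated data. Members and gene lists were chosen with earlier results of these data known. Every member above background range in at least 1 group is named, with values per array where called; from each list up to 3 called genes with the largest change after heat shock in each line were taken. Sequences and gene order came from RefSeq. Deviations of same-numbered untreated arrays correlated (r = 0.516, 0.402 and 0.577), and the block of these arrays was chosen after that was seen. Arrays of unlike number reached r = 0.588 (heated Q7 array 2 with heated Q111 array 3). Same-numbered heated arrays of the lines gave 0.345, -0.497 and -0.315. Such r values cannot show pairing, and the labels do not give it. Other groups were not taken as paired. Alternatives were other probe set rules, scalings, variance models, thresholds, an RNA quality covariate, the groups compared alone, the replicate block and each array left out.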

Additional observations from a re-analysis of the deposited data

Results flagged for a closer look

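The change after heat shock differed between the lines for 9 of the 37 genes by the limma test of the difference itself (Q111 effect minus Q7 effect, Benjamini-Hochberg adjustment over all 18193 genes), against 5.72% of all genes. Those with the more positive change in Q111 cells were Adamts9, with a difference of 3.29 (SE 0.47, adjusted p = 0.00416), Mmp3, with 2.79 (SE 0.54, adjusted p = 0.0158), Adamts12, with 1.99 (SE 0.35, adjusted p = 0.0103), and Mmp10, with 1.56 (SE 0.33, adjusted p = 0.0228). By their brightest probe sets Adamts9, Adamts12 and Mmp10 were in background range in both Q111 groups, where little of a fall can be measured. Adamts12 was still called lower there, by -0.89. The untreated Q111 mean of Mmp3 was 5.45, close above background range, so little of a fall could have been measured for it either. Those with the more negative change in Q111 cells were Mmp11, with -2.82 (SE 0.45, adjusted p = 0.00686), Adamts4, with -2.47 (SE 0.46, adjusted p = 0.0136), Adamts10, with -2.23 (SE 0.47, adjusted p = 0.0216), Mmp23, with -1.98 (SE 0.31, adjusted p = 0.0068), and Adamts7, with -1.21 (SE 0.24, adjusted p = 0.0166). The calls of Mmp10, Adamts7 and Adamts10 were each lost when 1 array was left out, without the arrays named beside each gene in the results, with adjusted p up to 0.0596, 0.0545 and 0.0671. The calls of Mmp3, Mmp10, Adamts4 and Adamts7 were lost with the actin control value added to the fit, and those of Adamts10 and Adamts12 with the mean of all probe sets of a gene.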

How the results depend on the processing

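Of 3295 values under alternatives for 145 results, 2943 kept direction and side of the threshold, 178 kept direction and lost the call and 78 gained it. Another 94, from 30 results, changed sign but were called neither way, and 2 changed sign with a call on either side: Adamts12 after heat shock in Q111 cells with the mean of all probe sets (0.060) and Mmp9 there with arrays centred on the median of genes (0.69). Counts of members called moved by over 1.5 times as follows; the cause was not tested. With the actin covariate they were 2 for heat shock in Q7 cells, 11 in Q111 cells and 5 for the difference of effects. Centred arrays gave 17 between the heated lines. Array weights, whose estimation did not fully converge, gave 14 for the difference of effects and 19 between the heated lines. An adjusted p under 0.01 left 12 in Q111 cells, 3 for the difference of effects and 6 between the heated lines, and a change of at least 2-fold left 14 in Q111 cells. With the replicate block the counts were 17, 24, 9, 11 and 11 over all arrays, and 18 for the untreated arrays alone, against 16 there without it; elsewhere the block moved no count by over 1.5 times. Leaving out 1 array gave 15 to 18 for heat shock in Q7 cells, 16 to 25 in Q111 cells, 6 to 10 for the difference of effects, 9 to 12 between the untreated and 6 to 12 between the heated lines. The fit on only the groups compared could not be given for the difference of effects, which needs all 4. Genes near 5.14 have little signal over background.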

Other observations

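Of the members called higher in heated Q111 cells, 5 shared a pattern across arrays that was noticed after their values were seen. Mmp8, Mmp20, Adamts3 and Adamts18 deviated from their group means together with Adamts19, with r from 0.853 to 0.923 over 12 arrays, which share their hybridization and processing. The deviations were high on array 3 of both untreated groups and of the heated Q111 group. Over all genes 716 (3.94%) had r above 0.8 with Adamts19, and 68.2% of these had a mean at or under the bound of background range, against 32.9% of all genes.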
